A study of Rattus norvegicus with 28 samples.

Results

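The genes described here are the 100 whose RNA level varied most between replicate pools of rat orbitofrontal cortex, a part of the frontal lobe known for tracking what rewards and their cues are worth. They were taken from 11012 genes with a mean level of 5 CPM or more (CPM, counts per M of a library's gene counts, where M is the prefix mega), out of 26405 genes in the deposited count tables. For each gene the level was put on the log2(CPM + 0.5) scale, the mean of its own group was subtracted, and the standard deviation (SD) of the 16 remainders, here called residuals, was taken. The 100 genes with the largest residual SD were kept, so their large spread is the criterion and not a finding.

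Sprague Dawley rats underwent intravenous surgery and then took either saline or the psychostimulant methamphetamine (meth) by self-administration. Tissue was punched out on day 2 or day 35 of withdrawal, an interval in which cue-induced drug seeking is known to increase. The 4 groups were saline at day 2, meth at day 2, saline at day 35 and meth at day 35, with 4 libraries each. All groups share the surgery and the training, and each library held RNA pooled from 2 rats, so a replicate is a pool and the spread between single animals was not measured. The rats were trained in 2 independent runs, and which pool came from which run is not given in the sources used here, so a run and a difference between pools cannot be told apart. The sources also give no age or sex of the rats.

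In bulk RNA sequencing, the spread between replicates combines counting error with differences between the animals and between the dissected pieces. Sprague Dawley rats are an outbred stock, so pools can also differ in genotype. In such tissue, fewer cells of a type and less RNA per cell cannot be told apart. The count tables carry Ensembl identifiers without names, and the RefSeq gene table used here matched 0 of 26405. The tissue label could therefore not be checked against marker genes, the members are described by rank, level and pattern, and no role or sequence is given for any of them.

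The 16 libraries held between 20.33 and 48.47 M gene counts. The shallowest library of the day 2 saline group was replicate 13 (20.33 M) and that of the day 2 meth group was replicate 1 (24.97 M). All 4 day 2 saline libraries, at 20.33 to 23.54 M, were shallower than every library of the other groups. In comparisons with day 2 saline, depth and group can therefore not be told apart.

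The residual SD of the 100 genes ran from 0.296 to 2.04 on the log2 scale, with a median of 0.348. Over all 11012 genes the median was 0.066. The spread was unevenly distributed among the 100: 3 genes had an SD of 1 or more, 13 lay between 0.5 and 1, and 84 were under 0.5. The boundary fell on a smooth slope. The last 3 genes inside it had SDs of 0.2980, 0.2967 and 0.2963, and the first 3 outside it had 0.2963, 0.2960 and 0.2959.

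Most of the 100 genes were expressed at a low to moderate level. Their median level was 11.1 CPM, against 33.8 CPM over all 11012 genes. In all, 46 of the 100 had a mean under 10 CPM, 39 lay between 10 and 50 CPM and 15 at 50 CPM or above. The spread was set beside counting error, as a description, since a large SD chose these genes. The SD expected from read counting alone had a median of 0.067 among the 100 genes, and the observed SD was 3.22 to 88.6 times the expected one (median 5.86). Over all 11012 genes that ratio had a median of 1.68. The gene with the highest ratio, ENSRNOG00000016516, was also the most abundant of the 100, at 4509 CPM. The biological coefficient of variation estimated by edgeR had a median of 26.2% among the 100 genes, against 4.79% over all 11012.

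**Figure D1:**
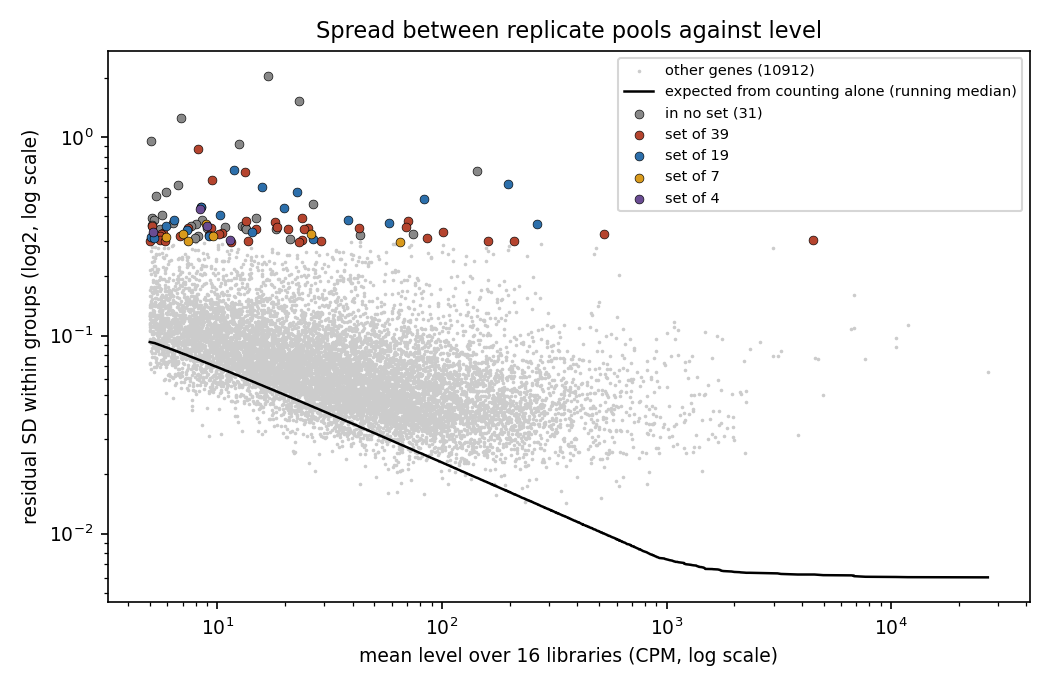
Each point is 1 of 11012 genes, with its mean level over 16 libraries (CPM, log scale) on the horizontal axis and its residual SD within groups (log2, drawn on a log scale) on the vertical axis; coloured points are the 100 most variable genes and the black line is the running median of the SD expected from counting alone. All 100 lie above the line, at 3.22 times the expected SD or more, and 46 of them have a mean under 10 CPM.

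Genes at the top of the ranking stood at separate levels in different libraries. The most variable gene, ENSRNOG00000033517, stood at 37.7, 12.1, 0.30 and 0.042 CPM in day 2 saline replicates 13 to 16. In day 2 meth replicates 1 to 4 it stood at 12.7, 37.3, 12.9 and 24.0 CPM. The day 35 saline replicates 9 to 12 gave 25.1, 0.40, 13.2 and 23.0 CPM, and the day 35 meth replicates 5 to 8 gave 24.7, 23.2, 22.5 and 0.27 CPM. The 4 low libraries, with 1 to 13 reads of this gene each, belonged to 3 of the 4 groups, and no library fell between 0.40 and 12.1 CPM. All 4 meth libraries at day 2 were on the high side.

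The gene ranked 2 had the same form in other libraries. It stood between 0.999 and 1.14 CPM in replicates 5, 6 and 8 of the day 35 meth group and day 35 saline replicate 10, and between 15.7 and 56.8 CPM in the other 12 libraries. All 8 day 2 libraries were high, and within day 35 meth only replicate 7 was, at 46.6 CPM. The gene ranked 3 was low in 3 libraries, with 0.71 CPM in day 2 meth replicate 3, 0.39 CPM in day 35 saline replicate 9 and 0.31 CPM in day 35 meth replicate 5. Its other 13 libraries lay between 4.83 and 11.1 CPM. The gene ranked 5 was low in day 2 saline replicate 16 alone, at 0.21 CPM or 5 reads, and lay between 5.84 and 20.6 CPM in the other 15. Without that library its residual SD was 0.38 in place of 0.93. Each of these 4 genes had a gap of more than 2 on the log2(CPM + 0.5) scale between neighbouring libraries, and no other gene of the 11012 did.

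The gene ranked 4 showed a different pattern, in which most day 2 libraries were low and most day 35 libraries high. It stood at 0.79, 16.7, 1.70 and 1.57 CPM in day 2 saline replicates 13 to 16. In the day 2 meth replicates it ran from 0.45 to 1.08 CPM, and in the day 35 meth replicates from 4.28 to 9.72 CPM, so the meth groups did not overlap. The day 35 saline replicates 9 to 12 gave 10.4, 1.32, 9.58 and 7.88 CPM, so the saline groups did. Its log2 fold change from day 2 to day 35 was 3.18 in meth rats (SE 0.97, edgeR adjusted p = 0.12) and 0.51 in saline rats (SE 0.77, edgeR adjusted p = 0.91), and neither passed with edgeR. DESeq2 called the difference in meth rats and limma-voom did not.

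**Figure D2:**
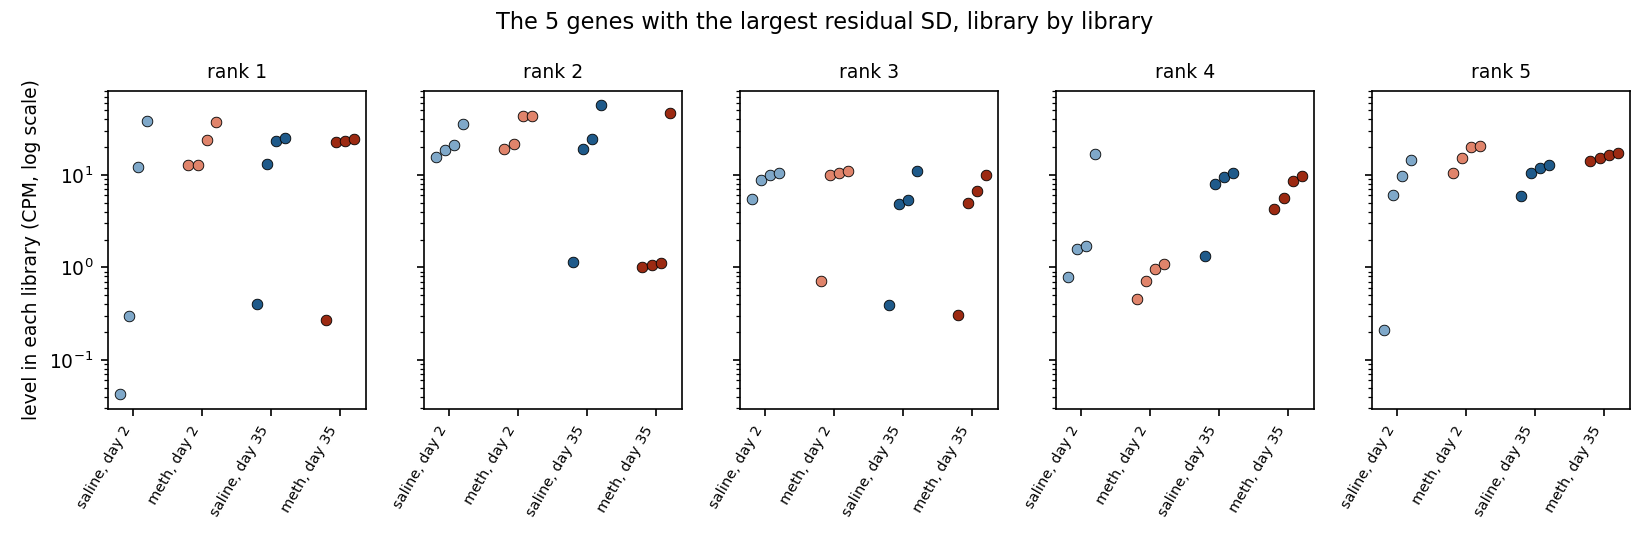
Each panel is 1 of the 5 genes with the largest residual SD, each point is 1 library, and the vertical axis is the level in CPM on a log scale; the horizontal axis gives the 4 groups of 4 libraries, and points are ordered by level within a group. The genes ranked 1, 2, 3 and 5 have 4, 4, 3 and 1 low libraries set apart from the rest, and the gene ranked 4 is low in all 4 day 2 meth libraries.

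Below these genes the spread was largely shared between genes. The residuals of the 100 genes were correlated over the 16 libraries and joined into sets by average linkage, divided at a Pearson r of 0.5. A total of 69 genes fell into 4 sets of 39, 19, 7 and 4 genes, and 31 fell into no set of 4 or more. With each gene scaled to the same variance, the first principal component held 36.5% of the residual variance of the 100 genes and the second 14.1%. Over all 11012 genes these shares were 19.7% and 12.4%. The sets were built from the values that chose the genes, so their correlations describe the libraries and were not tested. Group means had been removed, so 16 residuals carry fewer than 16 independent values.

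**Figure D3:**
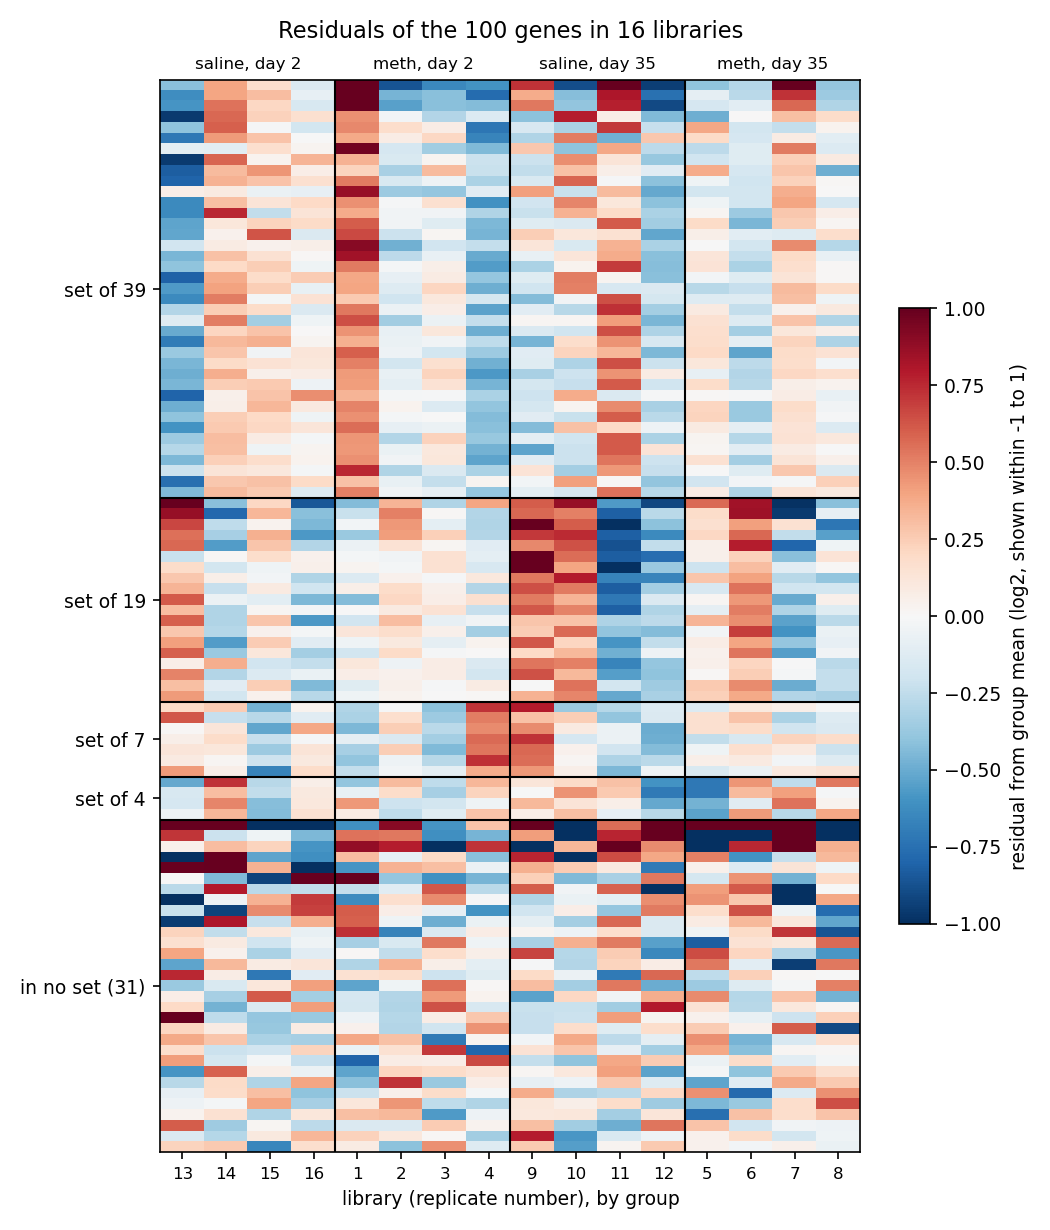
Rows are the 100 genes, grouped by co-varying set, columns are the 16 libraries named by replicate number and grouped by drug and day, and the colour is the residual from the group mean (log2, shown within -1 to 1). Day 2 meth replicate 1 is red for all 39 genes of the largest set, and day 35 saline replicate 11 is blue for all 19 genes of the second set.

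The set of 39 genes rose and fell together in several pools. The median r between its genes was 0.67 (range -0.12 to 0.99), and 24 of the 39 correlated with the set's mean at 0.8 or more. Mean levels spanned 5.03 to 4509 CPM with a median of 13.7. In the day 2 meth group, all 39 genes lay above their group mean in replicate 1, by 0.60 on average on the log2 scale, and 38 lay below it in replicate 4, by 0.41. In the day 2 saline group, 38 of 39 lay below it in replicate 13, with a mean residual of -0.51, and 38 lay above it in replicate 14 (0.30). At day 35, saline replicate 11 was high (0.39, 35 genes above) and saline replicate 12 low (-0.31, 3 above). The day 35 meth group was the narrowest, from -0.21 in replicate 6 to 0.23 in replicate 7. Between the highest and the lowest pool the set's mean residual differed by 1.11 on the log2 scale, or 2.16-fold.

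The single most abundant gene of this set, ENSRNOG00000016516, dominated its summed level. It stood at 3417, 5558, 5615 and 4534 CPM in day 2 saline replicates 13 to 16. The day 2 meth replicates 1 to 4 gave 5346, 3734, 4433 and 2894 CPM. The day 35 saline replicates 9 to 12 gave 3912, 3783, 6763 and 3851 CPM, and the day 35 meth replicates 5 to 8 gave 5170, 3747, 4720 and 4664 CPM. The 4 groups overlapped, and the highest pool of all was day 35 saline replicate 11. Summed over the 39 genes, the level was 6500 ± 1392 CPM (SD, n = 4) in day 2 saline, 5655 ± 1495 in day 2 meth, 6312 ± 1864 in day 35 saline and 6202 ± 783 in day 35 meth libraries.

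The pattern of the 39 genes reached far beyond them. Of the 10912 genes outside the 100, 340 correlated with the set's mean residual at 0.8 or more, and 113 at -0.8 or less. The 340 genes had a median residual SD of 0.13, against 0.066 over all 11012 genes. The rule itself gives every gene outside the 100 a smaller SD than the 100. The median absolute r of the 10912 genes with this set was 0.33.

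The set of 19 genes was the tightest of the larger sets. The median r between its genes was 0.79, with 0.347 for the lowest pair, and 17 of the 19 correlated with the set's mean at 0.8 or more. In the day 35 saline group it divided the pools evenly. Replicates 9 and 10 lay above the group mean (0.56 and 0.51 on the log2 scale, with 18 and 19 of the genes above) and replicates 11 and 12 below it (-0.68 and -0.39, with 0 genes above in either). In the day 35 meth group all 19 genes were above in replicate 6 (0.49) and 18 were below in replicate 7 (-0.40). In the day 2 saline group replicate 13 was high (0.44) and replicates 14 and 16 low (-0.25 and -0.29). The day 2 meth pools differed least, from -0.10 in replicate 1 to 0.17 in replicate 2.

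Summed over the 19 genes, the level was 939, 467, 720 and 472 CPM in day 2 saline replicates 13 to 16. It was 520, 696, 571 and 524 CPM in day 2 meth replicates 1 to 4. In day 35 saline replicates 9 to 12 it was 1456, 1418, 665 and 827 CPM, and in day 35 meth replicates 5 to 8 it was 1004, 1341, 595 and 772 CPM. The 2 most abundant genes of the set, with means of 266 and 197 CPM, made up a large part of these sums. Outside the 100 genes, 42 followed the mean of this set at an r of 0.8 or more and 6 at -0.8 or less.

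The 2 larger sets did not move as one. Their mean residuals correlated at -0.44 over the 16 libraries, with a median of -0.34 over the 741 pairs of genes across them. Day 2 saline replicate 13 and day 35 saline replicate 11 held the largest residual of 21 genes each. Replicate 13 was low for the 39 genes and high for the 19, and replicate 11 was high for the 39 and low for the 19.

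For the 2 small sets, the 3 pools furthest from their group means are given first. Other pools moved too. All 7 genes of the set of 7 were also below in day 2 meth replicates 1 and 3 (-0.30 and -0.31). They were below in day 35 saline replicates 11 and 12 as well (-0.25 and -0.29). All 4 genes of the set of 4 were also below in day 2 saline replicate 15 (-0.35). The set of 7 genes was high in replicate 4 of the day 2 meth group (0.56) and replicate 9 of the day 35 saline group (0.55) and low in day 2 saline replicate 15 (-0.39), with all 7 genes on that side in each. In the day 35 meth group its mean residual stayed between -0.05 and 0.09. Its summed level there was 105.8 to 113.7 CPM, against 117.5 to 201.3 CPM in the day 2 meth group. The set of 4 genes was low in replicate 5 of the day 35 meth group (-0.61) and replicate 12 of the day 35 saline group (-0.52) and high in day 2 saline replicate 14 (0.46).

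**Figure D4:**
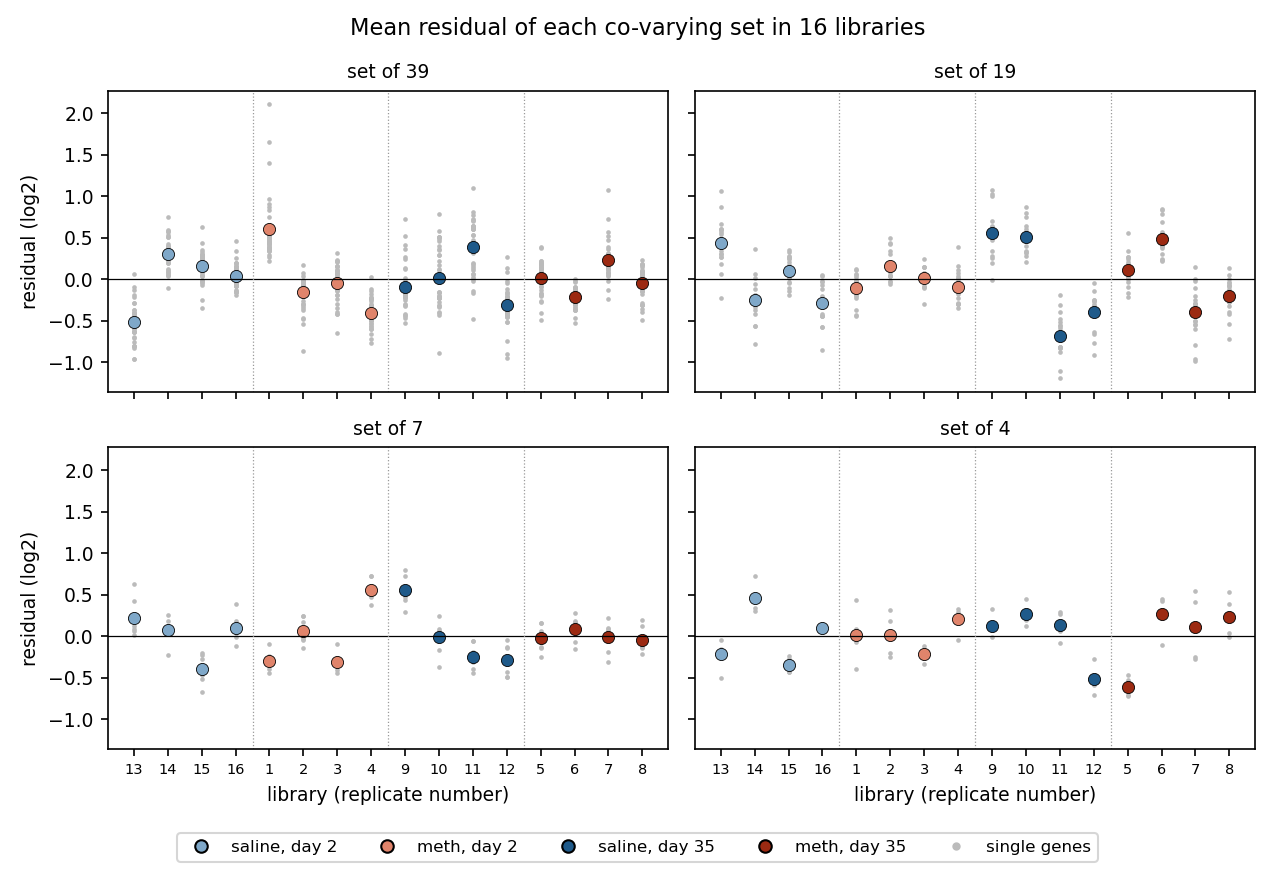
Each panel is 1 co-varying set; large points are the set's mean residual in each of the 16 libraries (log2 units, named by replicate number and coloured by group), small grey points are its single genes, and dotted lines part the groups. The set of 39 spans -0.51 in replicate 13 to 0.60 in replicate 1, and the set of 19 spans -0.68 in replicate 11 to 0.56 in replicate 9.

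Whether a wide spread in some groups is met again in another was read from libraries the choice had not used. The 100 most variable genes were chosen again from 3 groups, and their SD was taken in the group left out. With the day 2 saline group left out, 79 of the 100 chosen genes were in the top 5% of spread in that group. The numbers were 81 for day 2 meth, 86 for day 35 saline and 82 for day 35 meth. The median SD of the chosen genes was 4.25, 5.16, 5.38 and 4.35 times that of all genes in the 4 left-out groups. The lists chosen in this way shared 83, 84, 83 and 88 genes with the full list. Counting error, which is present in all groups and grows as level or depth falls, was not removed from these SDs. Within the full list, 62 of the 100 genes were in the top 5% of spread in all 4 groups and 34 in 3 of them.

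The sets were also rebuilt within 1 drug group and read in the other. From the residuals of the 8 saline libraries, a set of 21 genes held all 19 of the tight set. In the 8 meth libraries its gene pairs had a median r of 0.65, and 92.9% of them were positive. A set of 35 genes, 25 of them from the set of 39, also had a median of 0.65 in meth libraries, with 65.2% of pairs positive. A set of 13 genes, 12 of them from the 39, had a median of 0.61 with 80.8% of pairs positive. Over all pairs of the 100 genes in the meth libraries the median was 0.02, with 51.4% positive.

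Rebuilt from the 8 meth libraries and read in the saline ones, a set of 37 genes, 36 of them from the 39, had a median r of 0.64 with 91.4% of pairs positive. A set of 18 genes, 15 of them from the 19, had 0.76 with 75.2% positive, and one of 8 genes, none of them from either large set, had 0.69 with 75% positive. Over all pairs in the saline libraries the median was 0.07, with 54.6% positive. The other 5 rebuilt sets, of 4 to 9 genes, had medians from -0.03 to 0.32. The 100 genes themselves had been chosen on all 16 libraries, so these values are a description and not a test. Pairs of genes share the same libraries and are not independent observations. The saline and the meth libraries were run on the same 4 sequencing lanes, and the part of lane was not tested.

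The comparisons between groups asked whether meth or withdrawal time shifted these genes beyond the spread between pools. The choice removed group means, so it did not use these differences, but it favoured a wide spread, and the standard errors show it. At day 2, the log2 fold change between drug groups had a median SE of 0.28 among the 100 genes and of 0.05 over the 11012. All 100 genes passed the count filter, and a gene was called at an edgeR adjusted p under 0.05 over all 15413 genes tested.

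Between meth and saline rats, none of the 100 genes was called at either day by edgeR's quasi-likelihood test. At day 2, 0 of 100 were called against 0.11% of all genes tested. An unadjusted p under 0.05 was found for 10 of the 100, against 10.5% of all genes. At day 35, 0 of 100 were called against 0% of all genes, and 4 of the 100 had an unadjusted p under 0.05 against 5.85%. Limma-voom also called 0 of the 100 at both days, against 0.0973% and 0% of all genes. DESeq2 called none, but it gave an adjusted p to only 40 of the 100 at day 2 and 18 at day 35, and could call no other. Of all genes with an adjusted p it called 0.855% and 0.144%. The 4 meth and 4 saline libraries did not overlap for 3 of the 100 genes at day 2, against 5.56% of all genes, and for 2 at day 35, against 3.32%. The difference of the meth effect between the days was called for 0 of the 100 with edgeR, against 0.136% of all genes, and 5 of the 100 had an unadjusted p under 0.05 against 9.62%. DESeq2 called 3 of the 100 for that difference, against 0.539% of all genes with an adjusted p, all 3 in the set of 7 and all with a lower effect at day 35. Limma-voom called 0 of the 100 and 0.0584% of all genes.

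Over time in meth rats, 3 of the 100 genes were lower at day 35 than at day 2 and none was higher. Over all genes tested 1.83% were called, 1.38% lower and 0.448% higher. The day 2 and day 35 libraries did not overlap for 16 of the 100 genes, against 10.9% of all genes; 10 were higher at day 35, against 3.67%, and 6 lower, against 7.27%. An unadjusted p under 0.05 was found for 17 of the 100, against 16%. ENSRNOG00000047321, ranked 56 and in no set, stood at 15.9, 35.4, 16.4 and 22.3 CPM in day 2 meth replicates 1 to 4 and at 5.36, 7.32, 10.5 and 9.64 CPM in day 35 meth replicates 5 to 8, so the groups did not overlap. In meth rats the log2 level fell by 1.46 with an SE of 0.28 (edgeR adjusted p = 0.021). In saline rats its mean was 15.1 ± 3.77 CPM at day 2 and 8.03 ± 1.13 CPM at day 35 (SD, n = 4 each). That log2 difference of -0.90 had an SE of 0.30 and did not pass (edgeR adjusted p = 0.44). The saline groups did not overlap either, at 11.9 to 19.5 CPM on day 2 and 7.25 to 9.70 CPM on day 35.

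The other 2 called genes were in the set of 7. ENSRNOG00000003357, ranked 70, stood at 7.21, 11.9, 8.22 and 14.1 CPM in the day 2 meth replicates and at 4.65, 4.76, 3.52 and 3.68 CPM in the day 35 meth replicates. The groups did not overlap, and its log2 level fell by 1.32 with an SE of 0.26 (edgeR adjusted p = 0.020). In saline rats its change was 0.12 (SE 0.27, edgeR adjusted p = 0.95). The gene ranked 81 had a log2 fold change of -1.21 (edgeR adjusted p = 0.029) in meth rats. The count of 3 genes rested on single pools. It was 0 without day 2 meth replicate 4 or without day 35 meth replicate 5, and 1 without day 2 meth replicate 2 or without day 35 meth replicate 6, 7 or 8. It rose to 5 without day 2 meth replicate 1 or without day 35 saline replicate 9. DESeq2 called 6 of the 100 (1 higher and 5 lower), against 4.02% of all genes with an adjusted p. Limma-voom called 5, all lower, against 2.31%.

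The 7 genes of that set can be read side by side across the comparisons, which share libraries. They move together across pools (median r 0.72), so 7 genes in 1 direction are not 7 independent observations. All 7 had a positive log2 fold change for meth against saline at day 2 (median 0.33) and all 7 a negative one at day 35 (median -0.57). From day 2 to day 35, 6 of the 7 had a negative fold change in meth rats (median -0.88), and all 7 a positive one in saline rats (median 0.12). The median over the 11012 genes lay within 0.01 of 0 in each comparison. Of these 7 genes, edgeR called the 2 above over time in meth rats and none in the other comparisons. Single libraries moved these medians. Without day 35 saline replicate 9 the median at day 35 was -0.19, and without day 2 meth replicate 4 the median over time in meth rats was -0.55. With 1 library left out at a time, the median at day 2 ran from 0.08 to 0.47 and that over time in saline rats from -0.12 to 0.27, so the sign of the last changed, below 0 without day 2 saline replicate 15 or day 35 saline replicate 9.

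In saline rats, edgeR and limma-voom called none of the 100 genes over time and 0% of all genes. DESeq2 called none of the 29 members to which it gave an adjusted p, against 0.539% of all genes with one, and could call no other. An unadjusted p under 0.05 was found for 16 of the 100, against 8.68% of all genes, and 14 of the 16 belonged to the set of 19. For all 19 genes the log2 fold change in saline rats was above 0 (median 0.80), and the smallest edgeR adjusted p among them was 0.41. In meth rats 18 of the 19 were positive (median 0.46), 6 of them with an unadjusted p under 0.05 against 16% of all genes, and the smallest edgeR adjusted p was 0.18. The saline libraries of the 2 days did not overlap for 2 of the 100 genes, against 4.37% of all genes. The comparisons in saline and in meth rats share no library. The genes of a set move together across pools, so 19 genes in 1 direction are not 19 independent observations. The mean summed level was 649 ± 227 CPM at day 2 and 1091 ± 405 CPM at day 35 in saline rats, and 578 ± 82.4 and 928 ± 322 CPM in meth rats (SD, n = 4 each), and the ranges of the 2 days overlapped in both. Without day 35 saline replicate 9 or 10, 6 of the 19 genes had an unadjusted p under 0.05 in saline rats. Without day 2 saline replicate 14 or 16 these were 8 and 9, and without day 35 meth replicate 6 none of the 19 did in meth rats.

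None of the 39 genes of the largest set was called by edgeR, DESeq2 or limma-voom in any of the 5 comparisons. For meth against saline, DESeq2 gave an adjusted p to only 40 of the 100 genes at day 2 and 18 at day 35. Over time in saline rats it gave one to 29, and it could call no other gene there. At day 2, 10 of the 39 were higher in meth than in saline libraries and 29 lower by the sign of the fold change, and 28 of the 39 had a positive difference of the meth effect between days (median 0.14). These genes also move together across pools, so their signs are not independent observations. The median log2 fold change was -0.15 and 0.00 for meth against saline at day 2 and day 35, and 0.15 and -0.03 for day 35 against day 2 in meth and saline rats. An unadjusted p under 0.05 was found for 1 of the 39 at day 2 and 1 over time in meth rats, and for 0 in the other 3 comparisons. Both replicate 1 of day 2 meth and replicate 13 of day 2 saline were then left out, a choice made after seeing the data. For the 39 genes these were the highest day 2 meth pool (0.60) and the lowest day 2 saline pool (-0.51). Leaving out both had to lower the set's difference at day 2, so these values are no test. The 2 libraries also held the largest residual of 14 and 21 of the 100 genes, so leaving them out narrows the spread. The median at day 2 was then -0.50, still with 0 of the 100 genes called by edgeR. An edgeR unadjusted p under 0.05 at day 2 was then found for 24 of the 100 genes, in place of 10. Over all genes tested it was found for 1840 of 15484, in place of 1612 of 15413.

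**Figure D5:**
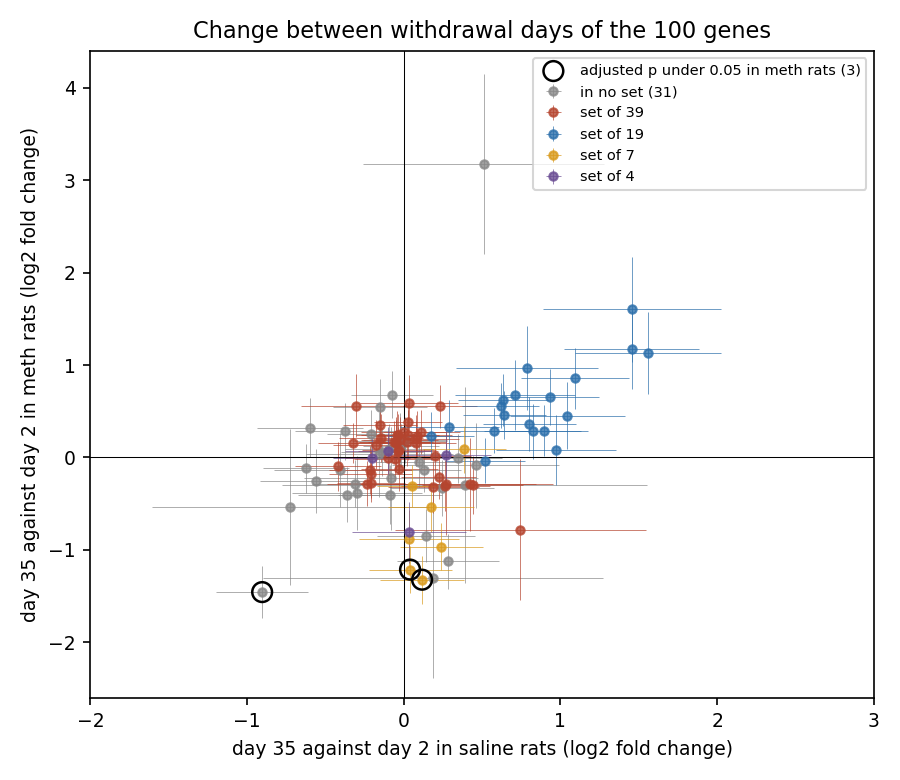
Each point is 1 of the 100 genes, coloured by set, with its log2 fold change from day 2 to day 35 in saline rats on the horizontal and in meth rats on the vertical axis; bars are standard errors, and black rings mark the 3 genes with an edgeR adjusted p under 0.05 in meth rats. The set of 19 lies to the right of 0 for all its genes, with a median of 0.80 in saline and 0.46 in meth rats, and the 3 ringed genes lie between -1.21 and -1.46 in meth rats.

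Summed over the 100 genes, no library held more than 10.42% of the squared residuals, and 2 of the 100 genes had over 50% of theirs in 1 library. That sum gives most weight to the genes with the largest SD. Gene by gene, the median share of a library ran from 1.17% in day 2 saline replicate 16 to 9.08% in day 2 saline replicate 13. The largest residual lay in day 2 saline replicate 13 for 21 genes (7 higher and 14 lower), in day 35 saline replicate 11 for 21 (12 higher and 9 lower) and in day 2 meth replicate 1 for 14 (13 higher and 1 lower). Replicates 13 and 1 were the shallowest libraries of their groups, and replicate 11, at 31.85 M, was the shallowest of the day 35 saline group. Replicate 10 of that group, at 32.47 M, held the largest residual of 2 genes. The shallowest day 35 meth library, replicate 8 (36.72 M), held that of 4 genes. Reads with several alignments were most frequent in replicate 1 (10.29%), followed by day 2 saline replicate 16 (10.15%) and day 35 meth replicate 5 (10.02%). Replicates 16 and 5 held the largest residual of 1 and 5 genes. The part of depth and of these reads in the residuals was not tested. With replicates 13 and 1 left out, 79 of the 100 genes were chosen again. Each of the 4 sequencing lanes held 1 library of every group. Lane means took up a median of 29.5% of the squared residuals of the 100 genes, against 27.5% over the 11012. With 4 libraries a lane, lane means take up a part of the squares even where lane has no effect. By set, this median was 26.1% for the 39 genes, 40.5% for the 19, 23.5% for the 7 and 35.0% for the 4. The part of lane in the sets was not tested.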

How the data were processed

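Poly(A) RNA from orbitofrontal punches was sequenced in 16 libraries, each a pool of 2 rats; the 12 samples of central amygdala in the series were not analysed here. Library preparation used an Illumina TruSeq RNA kit, per the labels' protocols. TopHat, HTSeq, limma and build rn4 are named, per the submitters' processing notes; not given in the sources used here were versions, annotation release and strand use. Raw counts of reads per gene are what the authors deposited. The 5 summary rows of each file (31.13 to 32.61% of reads) were dropped. Reads with several alignments are among those rows, which lowers the values of genes with near-identical copies. Days were read from the series' design text, since the labels of these samples say short and long.

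CPM was computed with the library's gene total, and counting error as Poisson error around each group mean. The 5 contrasts came from 1 model of 4 group means over 16 libraries in edgeR 4.0.16 under R 4.3.3 (filterByExpr, TMM, robust glmQLFit, glmQLFTest), adjusted by Benjamini-Hochberg over 15413 genes. The computations were tested on simulated data. Alternatives were other scaling, no count filter, DESeq2 1.42.0, limma-voom (limma 3.58.1), sequencing lane as a replicate block, and leaving out libraries. The labels pair libraries by lane, since every lane carried 1 library per group. Members, lists and tests were chosen with earlier results of these data known. The rule for named genes and the gene lists need symbols and could not be run. The 4 identifiers printed, and the other genes given by rank, were chosen after their values were seen.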

Additional observations from a re-analysis of the deposited data

Results flagged for a closer look

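In 8 of 56 sets of 4 libraries examined (gene counts, the levels of 9 genes and the means of 4 sets, in each group), 1 library stood far from the other 3; chance gives about 1 in 20. The genes were chosen for a wide spread and the sets share libraries, so 8 of 56 is not a test. Gene counts stood apart in day 2 saline replicate 13 (20.33 M, the others at 23.19 to 23.54) and day 2 meth replicate 1 (24.97 M, the others at 35.41 to 37.48).

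The most variable gene stood at 0.272 CPM in day 35 meth replicate 8 and at 22.5 to 24.7 CPM in the other 3 libraries of the group. The gene ranked 2 stood at 46.6 CPM in day 35 meth replicate 7 and at 0.999 to 1.12 CPM in the others. The gene ranked 3 stood at 0.713 CPM in day 2 meth replicate 3 and at 9.98 to 11.1 CPM in the others. The gene ranked 4 stood at 16.7 CPM in day 2 saline replicate 14 and at 0.787 to 1.70 CPM in the others. The gene ranked 81 stood at 4.33 CPM in day 2 saline replicate 15 and at 6.21 to 6.29 CPM in the others. ENSRNOG00000016516 stood at 6763 CPM in day 35 saline replicate 11 and at 3783 to 3912 CPM in the others.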

How the results depend on the processing

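The list of 100 genes depended on the level required of a gene: 39 were shared with the list at a mean of 1 CPM or more, 31 at 20 CPM or more, and 22 when genes were ranked by the ratio to counting error. It shared 95 and 85 genes with the lists at pseudocounts of 0.1 and 2, 97 with TMM scaling, 73 by median absolute residual, 87 with lane means removed as a replicate block, and 85 to 97 with 1 library left out. Divided at r = 0.7, the largest co-varying set held 17 genes in place of 39.

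Over all genes, DESeq2 called 73 between meth and saline at day 2 (edgeR 17), 8 at day 35 (edgeR 0), 75 for the difference between days (edgeR 21), 560 over time in meth rats (edgeR 282) and 38 in saline rats (edgeR 0). For the difference, edgeR called 8 with median-ratio scaling, 4 with the replicate block and 13 with replicates 1 (meth) and 13 (saline) of day 2 left out, a choice made after seeing the data, and limma-voom called 9. Among the 100 genes, DESeq2 called 3 for the difference and 6 over time in meth rats, and limma-voom 5 over time in meth rats, where edgeR called 0 and 3. With the replicate block, the 3 genes called over time in meth rats remained called, and the count of the 100 called was unchanged in the other 4 contrasts. Without both libraries, the median log2 fold change of the 39 genes was -0.50 at day 2 and 0.50 for the difference, in place of -0.15 and 0.14. That shift was built into the choice, since they were the highest meth and the lowest saline pool of day 2 for these genes. The causes of the other differences were not tested.

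With 1 library left out at a time, edgeR called 6 to 21 genes at day 2, 0 to 1 at day 35, 0 to 17 for the difference, 104 to 305 over time in meth rats (0 to 5 of the 100) and 0 to 2 in saline rats. The median of the 7 genes ran from -0.68 to -0.19 at day 35, from -1.05 to -0.52 for the difference and from -1.02 to -0.55 over time in meth rats. Counting error had a median SD of 0.067 among the 100 genes, against a residual SD of 0.348.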
